A study of Mus musculus with 6 samples.

Results

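Transcripts of 8 genes known from basophils, mast cells and eosinophils were followed in sorted myeloid cells of mouse bone marrow: Mcpt8, Prg2, Cpa3, Ms4a2, Fcer1a, Siglecf, Gata2 and Epx. They were taken as all probe sets whose platform annotation names one of these symbols, which gave 10 probe sets for 8 of the 18193 genes named on the array. They were selected on their expression values in the comparison described below, GFP_plus against GFP_min, so their differences between the groups are described here and carry no test.

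Marrow was taken from femurs and tibias. The mice were female HdcGFP animals with a C57BL/6 background, whose green fluorescence reports Hdc, the gene of the enzyme that makes histamine. All 6 samples carried this reporter and were sorted for the myeloid surface markers CD11b and Gr1. They were divided by reporter signal into a negative or low group (GFP_min, 3 arrays) and a positive or high group (GFP_plus, 3 arrays), with no treatment named and no age given in the labels. The description of GFP_min replicate b reads Gr1-negative, although its sorted-cell label is Gr1-positive. The labels do not say whether the arrays came from separate mice, so all errors and p-values describe variation among these 6 preparations and may be no more than technical. In bulk RNA from a sort, more cells of a type and more RNA per cell cannot be told apart.

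Basophils, mast cells and eosinophils are rare granule-bearing cells of allergy and defence against parasites. Basophils and mast cells carry the high-affinity IgE receptor, whose cross-linking releases stored histamine and proteases, and both are known for strong expression of Hdc. Eosinophils store cationic proteins, among them major basic protein and eosinophil peroxidase. Gata2 encodes a transcription factor that blood progenitors use and that mast cells and basophils keep.

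All 8 genes were higher in GFP_plus, but from very different starting levels. Mcpt8 and Prg2 lay just above the array medians in GFP_min and well above them in GFP_plus, and Siglecf was already high in GFP_min. Cpa3, Ms4a2 and Fcer1a lay about or below the array medians in GFP_min and at low levels above them in GFP_plus. Gata2 was low in both groups, and Epx stayed near or below the medians in both groups. Several other genes that define these cell types were below the array medians on all 6 arrays, among them the mast cell chymase genes, the tryptase genes Tpsab1 and Tpsg1 (but not Tpsb2), and the interleukin-5 and eotaxin receptor genes of eosinophils. Values are the deposited log2 expression values, and the medians of the 6 arrays over all non-control probe sets lay between 2.82 and 2.88. Levels of different genes come from different probes and are set only against the array they were read on.

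Promoter sequences are shown for the 5 genes on which the description turns and for which RefSeq (GRCm38.p6) gave one: Mcpt8 because it had the largest positive difference on the array, and Cpa3, Fcer1a, Ms4a2 and Siglecf because each holds the letters GATAA, the core bound by GATA factors such as the one Gata2 encodes. Of the 8 genes 7 had a promoter entry, and Prg2 had none. Each window runs from 250 bases before to 50 bases after the annotated start, read 5′ to 3′ on the strand of the gene, with GATAA or its reverse complement TTATC in capitals. The windows are chr14:56085148-56085447 on the minus strand for Mcpt8, chr3:20242132-20242431 on the minus strand for Cpa3, chr1:173227180-173227479 on the minus strand for Fcer1a, chr19:11623670-11623969 on the minus strand for Ms4a2, and chr7:43351091-43351390 on the plus strand for Siglecf.
Mcpt8: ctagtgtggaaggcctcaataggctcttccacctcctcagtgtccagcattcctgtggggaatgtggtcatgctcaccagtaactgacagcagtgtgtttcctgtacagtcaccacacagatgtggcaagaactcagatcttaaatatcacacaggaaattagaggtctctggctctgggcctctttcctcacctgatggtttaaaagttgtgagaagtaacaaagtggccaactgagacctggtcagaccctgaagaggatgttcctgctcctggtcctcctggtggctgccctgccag
Cpa3: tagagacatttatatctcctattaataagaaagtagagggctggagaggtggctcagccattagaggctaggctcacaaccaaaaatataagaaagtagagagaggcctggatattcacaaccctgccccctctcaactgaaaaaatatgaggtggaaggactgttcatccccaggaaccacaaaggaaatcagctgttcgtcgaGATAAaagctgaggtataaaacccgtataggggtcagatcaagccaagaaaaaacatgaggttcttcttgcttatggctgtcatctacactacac
Fcer1a: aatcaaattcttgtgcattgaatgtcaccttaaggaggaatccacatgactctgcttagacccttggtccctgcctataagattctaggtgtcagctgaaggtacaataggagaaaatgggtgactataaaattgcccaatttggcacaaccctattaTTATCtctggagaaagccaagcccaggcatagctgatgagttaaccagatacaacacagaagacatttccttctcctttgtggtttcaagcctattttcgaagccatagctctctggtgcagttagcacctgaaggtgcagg
Ms4a2: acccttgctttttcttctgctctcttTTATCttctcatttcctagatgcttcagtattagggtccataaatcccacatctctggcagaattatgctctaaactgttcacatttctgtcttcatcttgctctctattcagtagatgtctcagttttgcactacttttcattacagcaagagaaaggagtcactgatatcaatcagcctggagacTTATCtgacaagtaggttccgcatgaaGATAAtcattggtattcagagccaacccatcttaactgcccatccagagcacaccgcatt
Siglecf: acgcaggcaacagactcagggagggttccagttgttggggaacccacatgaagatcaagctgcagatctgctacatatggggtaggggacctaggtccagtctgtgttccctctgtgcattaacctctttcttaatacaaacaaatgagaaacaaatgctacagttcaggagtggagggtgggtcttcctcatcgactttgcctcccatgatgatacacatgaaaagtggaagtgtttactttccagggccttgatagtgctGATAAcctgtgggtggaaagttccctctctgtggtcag
GATAA was found on either strand in 4 of the 7 genes with an entry. Over all 32851 promoter windows of the same length, 25.4% held it. For this and the motifs below, a gene was counted if any of its windows held the letters. The shares over all are by window, so the measures are not quite alike. Ms4a2 held 3 copies, starting at positions −224, −37 and −10 relative to the annotated start, and Cpa3 and Fcer1a held 1 copy each, at −45 and −92. In Siglecf the copy lay after the start, at position 13. TGTGGT, the letters bound by RUNX factors, was found in 4 of the 7 genes against 16.8% of all windows, among them Mcpt8 with 2 copies at −188 and −139. TTNNGNAA, a loose form of the C/EBP site, was found in 3 of the 7 genes against 40.7% of all windows. The windows of Epx and of both annotated Gata2 starts, not printed, held neither GATAA nor TGTGGT. None of the matches of these 3 motifs overlapped a match of another in the windows printed. These are matches of letters only, and no binding was measured.

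**Figure D1:**
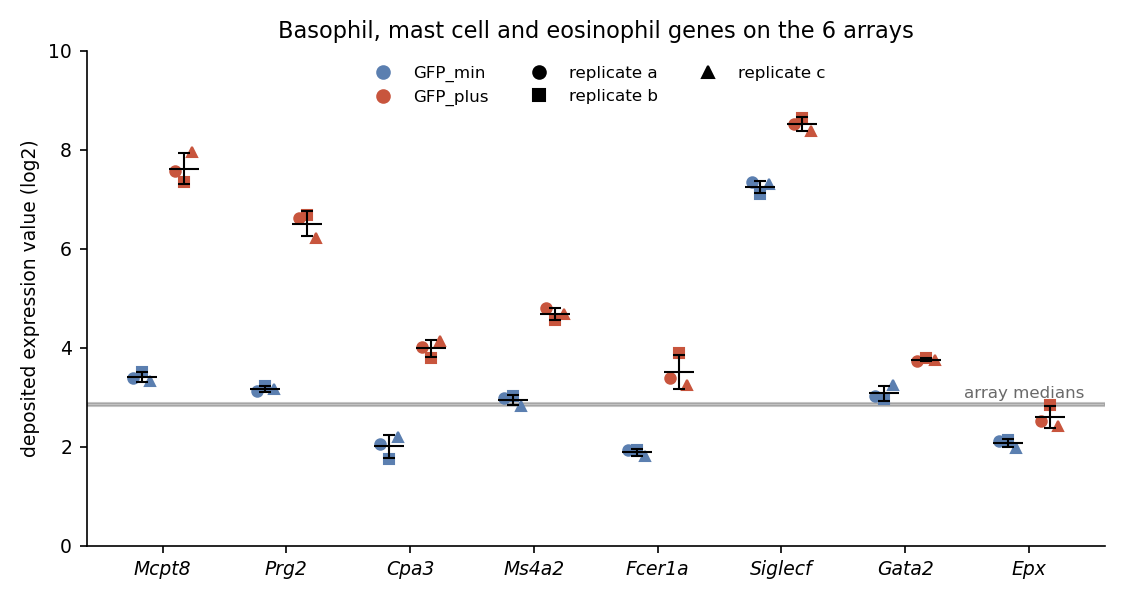
Deposited expression values (log2) of the 8 genes on the 6 arrays, each by its brightest probe set; blue marks GFP_min and red GFP_plus, the symbol gives the replicate letter, black bars give the group mean ± SD (n = 3), and the grey band spans the array medians. All 3 GFP_plus values lie above all 3 GFP_min values in each gene, and Epx does not rise clear of the grey band.

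Among the granule proteins, Mcpt8, a serine protease used as a marker of mouse basophils, had values of 3.39, 3.52 and 3.32 in GFP_min replicates a, b and c and of 7.56, 7.34 and 7.95 in GFP_plus. Every GFP_plus array lay more than 3 log2 above every GFP_min array, the gap between the groups being 3.82. The difference of means was 4.21 (3.41 ± 0.10 against 7.62 ± 0.31, mean ± SD, n = 3 each), or 18.5-fold, and was the largest positive difference among the 45037 non-control probe sets. Mcpt8 stood between the 59.0th and 61.1st percentile of the GFP_min arrays and between the 82.5th and 85.1st percentile of the GFP_plus arrays. Its GFP_min values exceeded the array medians by only 0.48 to 0.69, so the fold rests on a level near them.

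Prg2 encodes major basic protein, the main cationic protein of eosinophil granules. Its values were 3.12, 3.23 and 3.16 in GFP_min and 6.63, 6.68 and 6.21 in GFP_plus. The groups were separated by a gap of 2.98. The difference was 3.34 (3.17 ± 0.06 against 6.51 ± 0.26), or 10.1-fold, and came second among positive differences, after that of Mcpt8. This fold too rests on GFP_min values near the array medians, 0.30 to 0.41 above them.

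Cpa3 encodes the carboxypeptidase stored with proteases in mast cell and basophil granules. It was at 2.06, 1.76 and 2.20 in GFP_min, below the median of each array, and at 4.02, 3.79 and 4.14 in GFP_plus, above it. Because a level below the array median gives only a bound, Cpa3 was at least 2.23-fold higher in GFP_plus (measured difference 1.98, means 2.01 ± 0.23 and 3.99 ± 0.18).

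Epx, eosinophil peroxidase, was at 2.11, 2.14 and 1.98 in GFP_min and at 2.53, 2.85 and 2.42 in GFP_plus. The groups did not overlap, but 5 of the 6 values lay below the array median and GFP_plus replicate b exceeded it by 0.004. The measured difference of 0.52 (2.08 ± 0.08 against 2.60 ± 0.22) is therefore given without a fold.

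The IgE receptor consists of an alpha chain that binds IgE, a beta chain that amplifies the signal, and a gamma chain shared with other Fc receptors. Fcer1a, the alpha chain, was at 1.93, 1.93 and 1.81 in GFP_min and at 3.38, 3.90 and 3.24 in GFP_plus, at least 1.60-fold higher (measured difference 1.62, means 1.89 ± 0.07 and 3.51 ± 0.35). All GFP_min values were below the array medians and all GFP_plus values were above them, between percentiles 58.3 and 65.8. Ms4a2, the beta chain, was at 2.99, 3.02 and 2.82 in GFP_min and at 4.80, 4.56 and 4.69 in GFP_plus by its brighter probe set, a difference of 1.74 (2.94 ± 0.10 against 4.69 ± 0.12). GFP_min replicates a and b lay just above the array median and replicate c just below it. The other Ms4a2 probe set was below the median on all 6 arrays, at 1.69 ± 0.08 and 1.97 ± 0.06, and differed by 0.28 in the same direction. Fcer1g, the gamma chain, is not among the 8 genes and was bright in both groups, at 13.23 ± 0.03 and 13.20 ± 0.06. On the deposited scale its difference was −0.03 (95% interval −0.13 to 0.060, limma adjusted p = 0.544), so a change of the size seen in the alpha and beta chains lies outside the interval.

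Siglecf encodes a sialic acid binding lectin of eosinophils that also occurs on some macrophages. It was at 7.35, 7.11 and 7.30 in GFP_min and at 8.52, 8.65 and 8.37 in GFP_plus. Of the 8 genes, Siglecf stood highest relative to the other probe sets of its array in GFP_min, between the 81.0th and 82.0th percentile. The difference was 1.26 (7.25 ± 0.12 against 8.51 ± 0.14), or 2.39-fold.

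Mcpt8, Prg2, Siglecf and Gata2 were above the array medians on all 6 arrays, and of these 4 genes Gata2 had the smallest difference. Its brighter probe set was at 3.02, 2.97 and 3.26 in GFP_min and at 3.73, 3.80 and 3.76 in GFP_plus, a difference of 0.68 (3.08 ± 0.15 against 3.76 ± 0.03). Its other probe set gave 2.78 ± 0.10 and 3.09 ± 0.08, a difference of 0.31, with no overlap between the groups.

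All 10 probe sets had their 3 GFP_plus values above their 3 GFP_min values, an arrangement found in 21.0% of all non-control probe sets. Counted by gene with the brightest probe set, it was 8 of 8, against 22.2% of the 18193 named genes. The choice of genes used this contrast, so nothing is read from these counts. The median difference of the 8 genes was 1.68, and over all 10825 genes tested it was 0.0025. A filter on dim probe sets, which required a value above the array median on at least 3 of the 6 arrays, was passed by 7 of the 8 genes. Cpa3 and Fcer1a passed it through the GFP_plus arrays alone and so had to differ, and Epx did not pass.

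The differences of all genes move together with the scale chosen. Centring the arrays on the tested probe sets added 0.20 to every difference, centring on ribosomal protein genes added 0.76, and centring on the bacterial poly-A control RNAs changed it by −0.46. All 8 differences stayed positive under each of these, from 1.28 to 4.97 with ribosomal centring and from 0.061 to 3.75 with poly-A centring. With poly-A centring the groups overlapped in Gata2 (0.22) and Epx (0.061), and not in the other 6. Without GFP_min replicate b the differences ran from 0.55 in Epx to 4.26 in Mcpt8. The fall in signal from the 3′ to the 5′ end of a transcript, by which RNA quality was gauged, was 0.32 log2 greater in GFP_plus than in GFP_min for Gapdh and 0.061 greater for beta-actin. Its part in the differences was not tested.

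Within GFP_plus the genes did not vary alike. Mcpt8 and Cpa3 were highest on replicate c and lowest on replicate b. Prg2, Siglecf, Epx and Fcer1a were highest on replicate b and lowest on replicate c. Mcpt8 deviated from its GFP_plus mean by −0.28 on b and 0.33 on c, and Prg2 by 0.18 on b and −0.29 on c. Among all genes tested, 21.3% had the order of Mcpt8 and 22.2% that of Prg2, the most frequent of the 6 possible orders. Ms4a2 was highest on a, and Gata2 differed little among the 3 arrays. The SD of Fcer1a over the GFP_plus arrays (0.35) was at the 94.3th percentile of the 5745 probe sets within 0.5 log2 of its level, that of Mcpt8 (0.31) at the 91.9th of 1835, and that of Gata2 (0.03) at the 3.07th of 4336. With 3 arrays these orders are a description, and they were not tested.

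**Figure D2:**
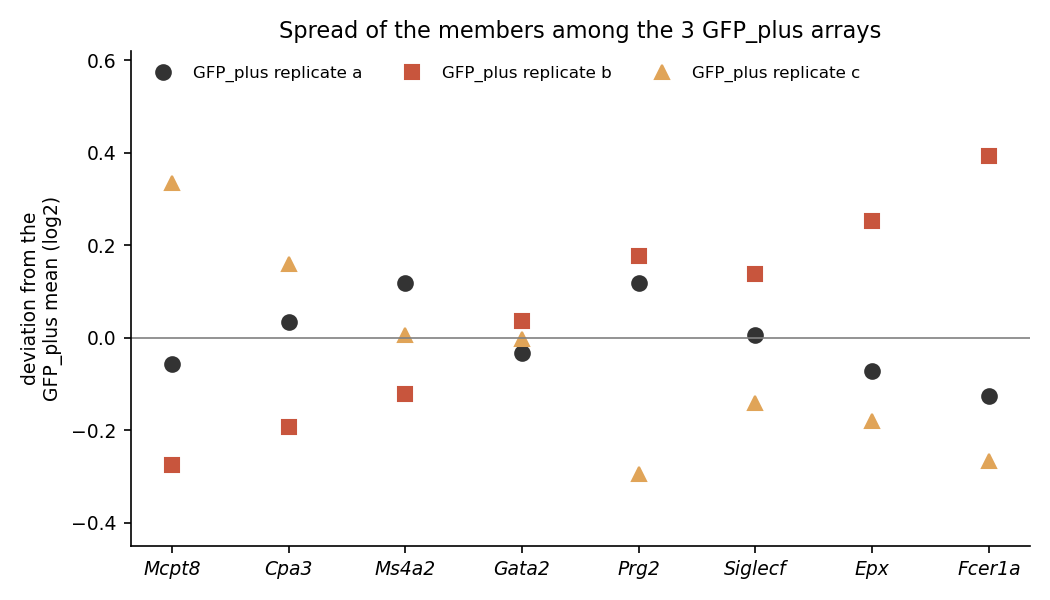
Deviation of each of the 8 genes from its GFP_plus mean (log2) on GFP_plus replicates a (black circles), b (red squares) and c (yellow triangles), by the brightest probe set. Replicates b and c change places between Mcpt8 and Cpa3 on the left and Prg2, Siglecf, Epx and Fcer1a on the right.

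Mcpt8 lies in a cluster of serine protease genes on chromosome 14, between the mast cell protease gene Mcpt4 and the cathepsin G gene Ctsg in RefSeq's gene order. Ctsg, a granule protease of neutrophil precursors, was the other gene of the cluster with signal above the array medians on all arrays: it rose from 10.33 ± 0.05 to 11.65 ± 0.08 (1.31, SE 0.06, limma adjusted p = 1.79e-07, n = 3 each). Of the 12 cluster genes besides Mcpt8 that had a probe set of their own, 9 were below the array medians on all 6 arrays, among them the mast cell chymases Cma1 (2.13 and 2.29 in GFP_min and GFP_plus), Mcpt1 (2.24 and 2.48), Mcpt2 (2.01 and 2.03) and Mcpt4 (2.21 and 2.37). Gzmb and Gzmn each exceeded the median on 1 array. Prg3, the neighbour and relative of Prg2, was likewise dim, at 1.97 ± 0.08 in GFP_min and 2.18 ± 0.06 in GFP_plus. Near Epx on chromosome 11 lie related peroxidase genes, of which Mpo, myeloperoxidase, rose by 1.49 to 12.83 (limma adjusted p = 1.43e-08). Lpo, lactoperoxidase, was too dim to test, with group means of 1.99 and 2.17 below the array medians. Next to Ms4a2 on chromosome 19, Ms4a3 rose by 1.35 (limma adjusted p = 2.39e-06) and Ms4a6d fell by 5.72 (1.94e-08). Siglecg, the neighbour of Siglecf on chromosome 7, rose by 0.77 (limma adjusted p = 0.00433). These neighbours were named for their family as well as their place. Nearby genes of other families, and all neighbours of Cpa3, Fcer1a and Gata2, were left out. They differed in both directions: Zfp715 beside Siglecf by 0.59, for example, and Hps3 near Cpa3 by −0.68. The Ms4a6d probe set is of a class that can also detect related transcripts.

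**Figure D3:**
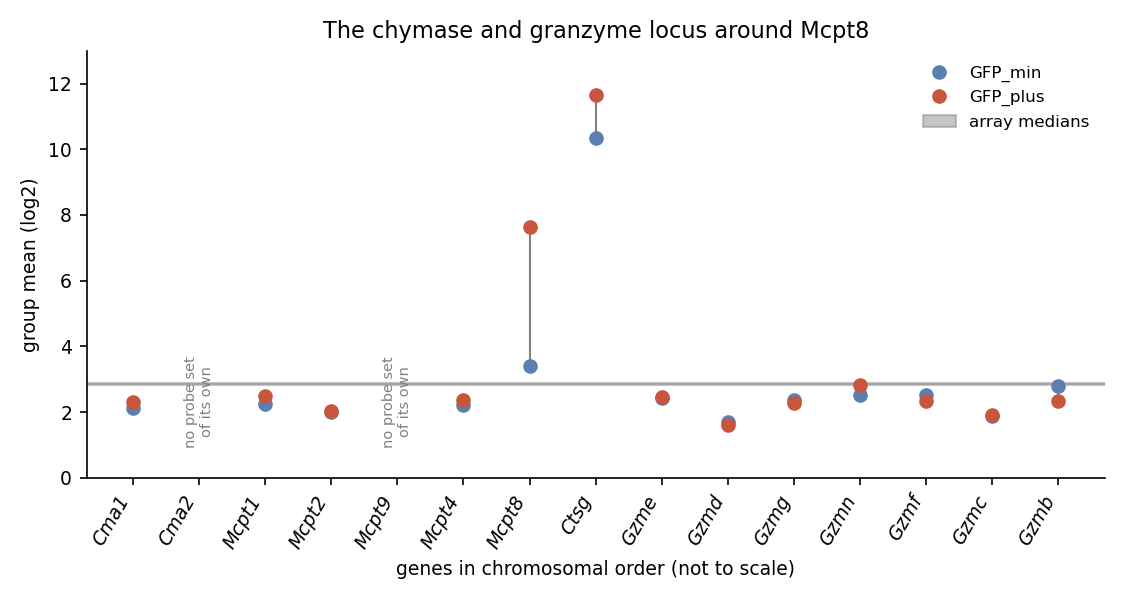
Group means (log2) of the protease genes from Cma1 to Gzmb around Mcpt8 on chromosome 14, in RefSeq's gene order and not to scale; blue marks GFP_min, red GFP_plus, and the grey band spans the array medians. Mcpt8 (3.41 and 7.62) and Ctsg (10.33 and 11.65) stand apart, while the other protease genes shown with a probe set of their own lie at or below the band.

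Other genes of these cells and their pathways were counted in lists from which the 8 genes were left out. The test was limma's moderated test over all tested probe sets with Benjamini-Hochberg adjustment, and 21.0% of the 10825 genes tested were higher and 27.6% lower at an adjusted p under 0.05, 48.6% in either direction. Each list's count is to be read against these shares, and no list test was made.

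Of the other basophil genes, 4 of the 7 tested were higher and none was lower, with a median difference of 0.28. Il13, Cyp11a1 and Hgf did not pass, with limma adjusted p from 0.263 to 0.857. With ribosomal centring all 7 were higher, and with poly-A centring 2 were higher and 1 lower. Csf1, the macrophage growth factor gene that activated basophils also express, rose by 1.63 (6.04 ± 0.19 to 7.67 ± 0.20, n = 3 each, limma adjusted p = 1.67e-05). Cd200r4, an activating receptor gene, was at 3.58, 3.38 and 3.80 in GFP_min and at 4.28, 5.08 and 4.27 in GFP_plus, a rise of 0.96. Ifitm1 rose by 0.59 and the tetraspanin gene Cd9 by 0.28, both from bright levels shared with other myeloid cells, and with poly-A centring the call of Ifitm1 was lost and Cd9 turned to −0.18. The basophil receptor gene Cd200r3, the cytokine gene Il6, the integrin gene Itga2 and the prostaglandin receptor gene Ptgdr2 were below the array medians on all arrays. Cd200r3 was at 1.76 ± 0.03 and 2.37 ± 0.27. Prss34, the other basophil protease, had no probe set named for it and was not analysed here.

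Of the other mast cell genes, 2 of 6 tested rose and 2 fell, the median difference being 0.18. Kit, the stem cell factor receptor of mast cells and progenitors, rose from 5.77 ± 0.20 to 7.24 ± 0.16 (1.47, SE 0.15, n = 3 each, limma adjusted p = 3.18e-05). Srgn, the proteoglycan core that packs granule proteases, rose by 0.34 from 13.43 and turned to −0.12 with poly-A centring. Ndst2, which sulphates mast cell heparin, fell by 1.53, and the transcription factor gene Mitf fell by 1.02, a call that was lost with ribosomal centring (−0.26, adjusted p = 0.0811). The tryptase gene Tpsb2 was near the array medians, at 3.06 ± 0.21 and 3.38 ± 0.09 (limma adjusted p = 0.0732). Of the 16 listed mast cell genes with a probe set, 9 were below the medians on all arrays: Cma1, Mcpt1, Mcpt2, Mcpt4, Mrgprb1, Rab27b, Tph1, Tpsab1 and Tpsg1.

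Of the other eosinophil genes, 6 had a probe set and 5 of these were below the array medians on all 6 arrays: the eotaxin receptor Ccr3, the interleukin-5 receptor Il5ra, Alox15, Ltc4s and Prg3. The remaining gene, Rnase2a, an eosinophil ribonuclease, was at 3.66, 3.00 and 3.60 in GFP_min and at 2.40, 2.21 and 2.57 in GFP_plus, where it lay below the medians. It was at least 1.48-fold lower, but it passed the filter on dim probe sets through the GFP_min arrays alone and so had to differ. Its limma call (adjusted p = 0.000978) therefore carries no test, and was lost with ribosomal centring (−0.27, adjusted p = 0.153). Prg2 and Rnase2a, both genes of eosinophil granule proteins, thus differed in opposite directions on the deposited scale, and nothing is read from this. Ear1, Ear2, Ear6, Ear10 and Cebpe had no probe set named for them alone and were not read.

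**Figure D4:**
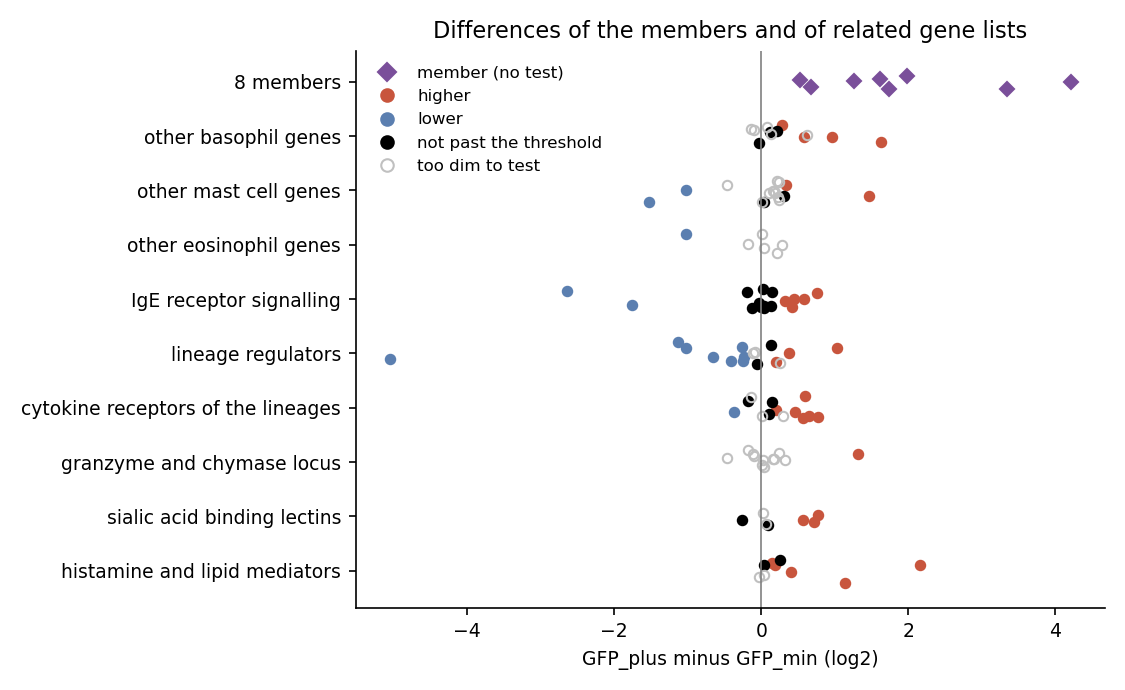
Difference of GFP_plus minus GFP_min (log2) of the 8 genes (purple diamonds, no test) and of the genes in the related lists (circles), each by 1 probe set. Red and blue mark genes higher or lower at a limma adjusted p under 0.05, black those not past it and open grey those too dim to test. Most mast cell, eosinophil and protease cluster genes are grey, where a difference near 0 is not informative. The diamonds run from 0.52 (Epx, also too dim to test) to 4.21. They were selected on this contrast, so their place against the lists carries no test.

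Genes that carry the IgE receptor signal were all bright enough to be tested, except Lyn, which had no probe set named for it alone. Of these, 5 of 16 rose and 2 fell around a median difference of 0.042. The adaptor gene Lat2 fell by 2.64 (6.51 ± 0.15 to 3.87 ± 0.10, n = 3 each, limma adjusted p = 4.44e-07) and the kinase gene Fyn by 1.76. Only 1 of the 2 tested Lat2 probe sets was called. Syk, the kinase that docks on the receptor, rose by 0.58 and the calcium channel gene Orai1 by 0.76, calls that were lost with poly-A centring. The split depended on the scale: 14 of the 16 were higher with ribosomal centring, and 0 higher and 8 lower with poly-A centring (limma, adjusted p under 0.05).

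Of the regulators of these lineages, 3 of 13 tested rose and 8 fell around a median difference of −0.24, and with ribosomal centring 9 rose and 1 fell. Irf8, the monocyte and basophil progenitor factor, had the largest change and fell by 5.05 (10.69 ± 0.07 to 5.63 ± 0.16, n = 3 each, limma adjusted p = 8.55e-10). Tal1, a partner of GATA factors, rose by 1.04 (3.21 ± 0.29 to 4.25 ± 0.23), while Cebpa fell by 1.14 and Lmo2 by 0.41. With ribosomal centring the call of Cebpa was lost and Lmo2 turned to 0.35. Stat5b rose by 0.38 and Notch2 by 0.20, and both turned with poly-A centring, to −0.08 and −0.26. Gata1, which eosinophils and mast cells use, and its cofactor gene Zfpm1 were below the array medians on all arrays. Xbp1 and Runx1, both counted as lower, each had 1 other probe set called higher. Xbp1 was called lower in 3 of its 4 tested probe sets, and Runx1 in 1 of 5. They were singled out after their values were seen.

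Of the receptors for the cytokines of these lineages, 6 of 10 tested rose and 1 fell around a median difference of 0.33. Il1rl1 and Il2rg had no probe set named for them alone and were not read. The interleukin-18 receptor chain gene Il18rap rose by 0.57, Il4ra by 0.78, Il13ra1 by 0.60 and Il1rap by 0.65, and none of these calls was kept with poly-A centring. The interleukin-3 receptor gene Il3ra, whose ligand is the main growth factor of basophils, fell by 0.37 (6.37 ± 0.09 to 6.00 ± 0.04, limma adjusted p = 0.0343). That call was lost when any 1 of the 6 arrays was left out (adjusted p 0.0510 to 0.0974) and with the replicate block (0.0973), and it turned to 0.39 with ribosomal centring.

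Of the lectins related to Siglecf, 3 of 5 tested were higher and none was lower, with a median of 0.57. Cd33 rose by 0.72 (10.38 ± 0.04 to 11.11 ± 0.05, n = 3 each, limma adjusted p = 8.22e-06), Siglecg by 0.77 and Siglece by 0.57, and the 3 calls were lost with poly-A centring. Siglece also lost its call without GFP_min a (0.46), GFP_min c (0.58), GFP_plus a (0.47) or GFP_plus b (0.51).

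Hdc, on which the reporter is based, was 11.19 ± 0.03 in GFP_min and 12.01 ± 0.06 in GFP_plus, a difference that the sort itself bears on. Itgam, the gene of CD11b, was 11.58 ± 0.23 and 11.84 ± 0.13. Besides Hdc, 5 of 7 tested genes of histamine and lipid mediators rose and none fell, with a median difference of 0.26, but with poly-A centring 2 rose and 2 fell. Ptgs2, the inducible cyclooxygenase, rose by 2.15 (3.96 ± 0.17 to 6.12 ± 0.18, n = 3 each, limma adjusted p = 3.56e-06), and Hnmt, which inactivates histamine, by 1.14. Alox5 rose by 0.41 and Lta4h by 0.19, and both turned with poly-A centring (−0.05 and −0.27). The mast cell and eosinophil enzymes Hpgds and Ltc4s were below the array medians on all arrays.

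The genes whose profiles over the 6 arrays were most like that of Mcpt8 were sought by the root mean square distance between profiles centred on their own means. Prg2 was the nearest of all, at 0.54 log2, followed among genes outside the 8 by Nkg7, a granule membrane protein gene (1.06), the AP-1 factor gene Junb (1.06) and Ptgs2 (1.08). Cpa3 lay at 1.13. For Prg2 the nearest outside the 8 were Ptgs2 (0.61), Nkg7 (0.66) and Junb (0.67). Ptgs2, Nkg7 and Junb rose by 2.15, 2.10 and 2.13. A distance of this kind is governed mainly by the size of the group difference, on which the 8 genes were selected. Mcpt8 and Prg2 had the largest positive differences on the array, and their orders within GFP_plus differed (c, a, b against b, a, c). Nothing on a shared pattern is therefore read from these distances.

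Markers of several other cell types differed between the same groups, most clearly those of monocytes and neutrophil precursors. Monocyte markers were lower for 10 of 10 tested, with mean levels of 11.9 to 12.0 on the GFP_min and 6.89 to 7.10 on the GFP_plus arrays, and Ms4a6b and Fn1, the pair with the smallest adjusted p, fell by 6.21 and 5.23. Markers of neutrophil precursors were higher for 7 of 7 (9.11 to 9.26 against 10.6 to 10.8), and those of mature neutrophils for 5 of 10 (13.3 to 13.4 against 13.6 to 13.7). The mature neutrophil markers not called, Camp, Ltf, Ngp, S100a8 and S100a9, had group means from 14.06 to 14.90. The highest values on the arrays were 14.83 to 14.92, and whether a rise could show so near them was not tested. Stem and progenitor markers were higher for 3 of 5 and lower for 1 (5.86 to 5.95 against 5.70 to 5.82), with Cd34 and Hoxa9 below the array medians on all arrays. The lower gene was Flt3 (−3.67), which the dendritic cell list also holds. Of the erythroid markers, Car1, Car2 and Tfrc were tested and higher (list mean 3.49 to 3.60 against 3.89 to 3.94), or 2 of them without the filter on dim probe sets, with Alas2, Epor and Klf1 below the medians. Megakaryocyte markers were higher for 4 of 5 (3.48 to 3.51 against 3.84 to 3.93), and for 2 without GFP_min replicate a or GFP_plus replicate a, with Ppbp below the medians. Resident macrophage markers were higher for 3 of 5 and lower for 1 (3.96 to 4.06 against 4.27 to 4.43), with C1qc, Mertk and Siglec1 below the medians. Vcam1 was among the higher (2.02), and the lower gene was Adgre1 (−1.43). Dendritic cell markers were lower for 3 of 5, Flt3 among them, and higher for 1, Itgax (1.80), with Zbtb46 below the medians (list mean 4.71 to 4.95 against 3.17 to 3.22). T and NK cell markers were lower for 2 of 5 (3.92 to 4.14 against 3.58 to 3.89), with Cd3e and Ncr1 below the medians. B cell markers were lower for 1 of 4 (3.60 to 3.78 against 3.55 to 3.63), with Pax5 below the medians. With poly-A centring the higher counts fell to 0 for mature neutrophils and erythroid cells and to 1 each for stem cells, megakaryocytes and resident macrophages, with ribosomal centring 3 B cell and 3 T and NK cell markers were higher, and the monocyte and neutrophil precursor counts kept their size under both. Car1 and the megakaryocyte marker Itga2b passed that filter through the GFP_plus arrays alone, and the dendritic cell markers Irf4 and Cd209a, like Rnase2a above, through the GFP_min arrays alone, so the counts that hold them are partly set by the filter. The part of these cells in the differences of the 8 genes was not tested.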

How the data were processed

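Total RNA of sorted marrow cells was labelled for 3′ expression arrays, per the labels' protocols. Expression values on a log2 scale were deposited by the authors for 45101 probe sets on 6 arrays and come from GCRMA, per the submitters' processing notes. The sources used here give neither its version nor its settings, and the log2 scale was read from the values. They were used as deposited. The number of arrays limits the precision.

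Samples were grouped by title. Gene names came from the platform annotation in GEO: 34945 non-control probe sets had 1 symbol and 932 had several, which named no gene. Gene IDs of 34754 were found in a RefSeq table (GRCm38.p6) and their symbols updated. Leaving out 64 controls, probe sets above their array's median on at least 3 of 6 arrays entered a 2-group fit in limma (version 3.58.1, R version 4.3.3; lmFit, eBayes with intensity trend, Benjamini-Hochberg, threshold 0.05), which was tested on simulated data. The probe set with the highest mean stood for its gene. Of the named genes, Lat2 and Stat5b had their call in 1 of 2 tested probe sets, Syk in 3 of 4 and Vcam1 in 2 of 3. For a group under the array medians throughout, the fold is a bound against those medians.

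The 8 genes, the 19 lists, the naming rule (up to 4 genes of a related list and 2 of a marker list by smallest adjusted p, the few called the other way, and the 3 nearest profiles) and the alternatives were chosen with earlier results of these data known. Plots used matplotlib 3.10.9 (Python 3.11.15).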

Additional observations from a re-analysis of the deposited data

How the results depend on the processing

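Of 372 counts and medians recomputed under other settings, arrays left out aside, 302 stayed within 1.5 times or within the replicate spread. The changes came mainly with the scale, and the share of called genes that were higher moved from 43.2% to 68.1% (centring on tested probe sets), 90.8% (ribosomal) and 4.38% (poly-A). Arrays and GCRMA values without detection calls limit what can be said of levels near the medians. With a floor of 1 log2 above the median, 4 of the 8 genes instead of 7 were above it on all GFP_plus arrays, and 1 instead of 4 on all GFP_min arrays.

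Centring on tested probe sets gave 4465 genes higher and a median of the 8 differences of 1.88. It gave 10 IgE signalling, 10 mature neutrophil, 2 B cell and 3 T and NK cell genes higher, and 5 regulators and 0 cytokine receptors lower. Ribosomal centring gave 8449 genes higher, 853 lower and a median of 2.44. Higher were then 7 basophil, 4 mast cell, 14 IgE signalling, 9 regulator, 10 cytokine receptor, 5 lectin, 10 mature neutrophil, 3 B cell, 3 T and NK cell and 2 dendritic cell genes. Lower were 1 mast cell, 0 eosinophil, 1 regulator, 0 cytokine receptor, 0 B cell and 1 T and NK cell gene. Lmo2 (0.35), Il3ra (0.39) and Cd79b (0.049) turned. Poly-A centring gave 282 higher, 6150 lower and a median of 1.22. Higher were 2 basophil, 1 mast cell, 0 IgE signalling, 1 regulator, 0 cytokine receptor, 0 lectin, 2 mediator, 0 mature neutrophil, 1 stem, 1 megakaryocyte, 0 erythroid and 1 resident macrophage gene. Lower were 1 basophil, 8 IgE signalling, 3 cytokine receptor, 1 lectin, 2 mediator, 5 mature neutrophil and 2 B cell genes. Cd9 (−0.18), Srgn (−0.12), Stat5b (−0.076), Notch2 (−0.26), Alox5 (−0.053) and Lta4h (−0.27) turned.

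Quantile normalization gave 0 cytokine receptors and 1 lectin lower, and 1 B cell and 1 T and NK cell gene higher. Means of probe sets gave a median of 1.44 for the 8 genes, 1 lectin lower, and 1 B cell and 1 T and NK cell gene higher. Without the filter 0 cytokine receptors, 1 protease cluster gene and 2 stem genes were lower and 2 cluster genes higher. Filtering on all 6 arrays left 0 eosinophil, 1 IgE signalling, 0 stem, 1 T and NK cell and 0 dendritic cell genes lower, as fewer genes were tested. Without the variance trend 3 mediator genes were higher. The replicate letters gave correlations of deviations from −0.30 to −0.18. Deviations within a group of 3 arrays depend on one another, so these values cannot decide whether the letters pair the samples. With the replicate block 1738 genes were higher, 2604 lower and 0 cytokine receptors lower.

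Leaving out each array in turn gave 1745 to 2081 genes higher and 2682 to 2778 lower, and medians of the 8 genes from 1.61 to 1.75. Cytokine receptors lower were 0 in each case, megakaryocyte genes higher 2 to 5, stem genes lower 1 to 2, lectins lower 0 to 1, and B cell and T and NK cell genes higher 0 to 1. Apart from the scale shift and the averaged probe sets, the cause of these changes was not tested.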
